A study of Mus musculus with 4 samples.

Results

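Interferon-stimulated genes were followed in mouse peritoneal macrophages that had been kept for 6 h with palmitic, oleic or linoleic acid, or without fatty acid. The set is a fixed list of 39 genes, and a member was measured when the array held at least 1 probe annotated to that gene alone. This was so for 35 of the 39, out of 19938 genes measured in the same way. All 35 also passed the brightness filter that 11174 genes passed, for which the brightest of a gene's 4 values had to reach log2 7.09, the median over the whole table. Of the other 4 members, Isg15, Gbp2 and Ifi204 have probes annotated to more than 1 gene and Ifi44 has no annotated probe here, so none of the 4 was analysed.

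The 4 groups were palmitic acid, a saturated acid of 16 carbons, oleic acid, with 18 carbons and 1 double bond, and linoleic acid, with 18 carbons and 2, each at 500 µM and bound to bovine serum albumin (BSA), and a control without fatty acid. The control is labelled as BSA alone, whereas the treatment protocol describes an ethanol and KOH vehicle. All cells came from wild type C57BL/6 mice aged 8 to 12 weeks. They were washed from the peritoneal cavity 3 days after an injection of 1 mL of 4% thioglycolate, which draws macrophages into the cavity, and the cells that stuck to the plate were used. Each group gave 1 Affymetrix array, hybridised with RNA combined from 3 samples, and so 1 value per gene. Without replicate arrays no test, interval or p-value of a difference exists, and differences are given on a log2 scale as the first-named array minus the other. Nothing in the labels says whether the pooled samples came from separate mice.

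Interferons are cytokines that cells release on sensing viral or bacterial material. Type I interferons act through the receptor of Ifnar1 and Ifnar2 and the kinases Jak1 and Tyk2 on transcription factors, Stat2 and Irf9 among their genes, that bind the interferon-stimulated response element (ISRE) in promoters. Interferon-gamma acts mainly at gamma-activated sites (GAS). Macrophages both make type I interferon and respond to it. The products of the induced genes sense foreign nucleic acid, block viral replication, tag proteins with the ubiquitin-like protein ISG15, and display antigen.

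The promoters of the IFIT genes and of Rsad2 are shown because these genes were among the brightest and because Ifit1, Ifit2 and Rsad2 lay higher in the palmitic acid array while Ifit3 did not. Each line gives the 250 bases before a RefSeq start of the gene, for Ifit2 the first of 2 starts in the table, 5′ to 3′ on the gene's strand in build GRCm38.p6, with matches to the ISRE core in capitals. The core was searched as GAAANNGAAA, or TTTCNNTTTC on the other strand. Ifit1 lies at chr19:34640639-34640888 on the plus strand, Ifit3 at chr19:34583279-34583528 (plus), Ifit2 at chr19:34550444-34550693 (plus) and Rsad2 at chr12:26456453-26456702 (minus).
Ifit1: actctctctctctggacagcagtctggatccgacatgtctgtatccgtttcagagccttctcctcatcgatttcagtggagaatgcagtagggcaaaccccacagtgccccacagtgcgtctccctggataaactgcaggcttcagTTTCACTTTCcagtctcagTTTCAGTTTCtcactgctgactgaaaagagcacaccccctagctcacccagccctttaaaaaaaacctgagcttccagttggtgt
Ifit3: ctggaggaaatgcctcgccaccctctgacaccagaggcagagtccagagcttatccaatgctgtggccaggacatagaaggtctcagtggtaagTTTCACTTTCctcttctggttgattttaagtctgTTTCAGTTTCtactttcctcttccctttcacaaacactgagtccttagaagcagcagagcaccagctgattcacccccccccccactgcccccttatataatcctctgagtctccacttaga
Ifit2: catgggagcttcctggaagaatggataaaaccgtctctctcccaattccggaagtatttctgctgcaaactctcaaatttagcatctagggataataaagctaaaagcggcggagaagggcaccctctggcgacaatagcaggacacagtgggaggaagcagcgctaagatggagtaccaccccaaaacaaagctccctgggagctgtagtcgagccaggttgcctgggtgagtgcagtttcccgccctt
Rsad2: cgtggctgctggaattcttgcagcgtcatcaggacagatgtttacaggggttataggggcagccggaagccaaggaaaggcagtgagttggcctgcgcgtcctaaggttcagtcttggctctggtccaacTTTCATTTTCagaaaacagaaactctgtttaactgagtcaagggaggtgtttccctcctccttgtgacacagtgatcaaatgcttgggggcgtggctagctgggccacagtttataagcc
Ifit1 has 2 matches, which begin 104 and 85 bases before the start, and Ifit3 has 2, at 156 and 122 bases. Rsad2 has 1 match, at 120 bases. The Ifit2 window holds none of these letters, and neither does that of its other start, which says nothing of further windows or of a factor's binding.

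Over the window from 250 bases before to 50 after the start, 30 of the 39 members have a promoter in the RefSeq table, and 15 of the 30 hold the ISRE core, beside 3.99% of all 27025 genes with a promoter there. A GAS, searched as TTCNNNGAA, which reads the same on both strands, was found in 8 of the 30, beside 9.55% of all genes. Gbp5, Bst2 and Eif2ak2 hold both. The core lies in overlapping copies in Isg15, Bst2, Gbp3 and Trim21. Mx1, Mx2, Oas2, Usp18, Dhx58, Zbp1, Parp9, Parp14 and Ifi204 are not in the table.

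The interferon-stimulated genes were bright on every array, the control included. The median of the 35 members was log2 12.29 with palmitic acid, 12.20 with oleic acid, 12.30 with linoleic acid and 12.13 in the control, beside 7.08, 7.07, 7.13 and 7.09 for all 35556 probes. In the control array 26 of the 35 were in the top 5% of measured genes and 32 in the top 10%, and the median member stood at percentile 97.3. The 3 members below the top 10% were Irf1, Mx2 and Bst2, the dimmest of them Irf1 at percentile 85.8. Brightness depends on the probes as well as on the RNA, so these places show where a value lies on its array and not how many transcripts one gene has beside another.

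**Figure D1:**
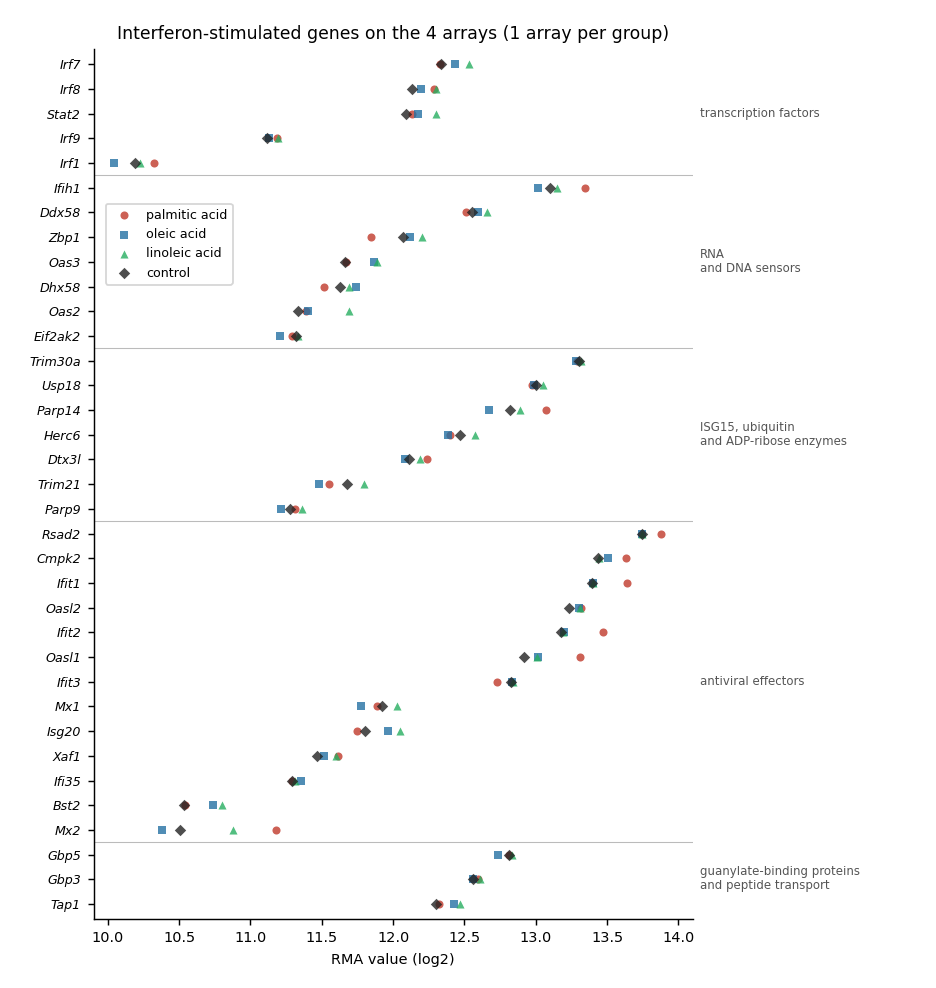
RMA value on a log2 scale (horizontal axis) of each of the 35 measured interferon-stimulated genes on the palmitic acid, oleic acid, linoleic acid and control arrays, 1 point per array, grouped by role and ordered by the control value within a role. Most genes have their 4 points close together above log2 11, and Mx2 has the widest spread, with 11.18 for palmitic acid against 10.38 for oleic acid.

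The labelled cell type was checked against marker genes. Of 12 macrophage markers 11 were measured and all 11 passed the brightness filter, with control values up to log2 13.92 for the lysozyme gene Lyz2, and their median was 12.57 with palmitic, 12.89 with oleic and 12.80 with linoleic acid, against 12.83 in the control. None of the measured markers of natural killer cells (3) or mast cells (5) passed it, and 1 of 3 T cell markers, 1 of 4 B cell markers and 1 of 5 neutrophil markers did. Of the 4 markers of plasmacytoid dendritic cells, 3 passed it. Of 10 mesothelial and fibroblast markers 8 passed, and the median over all 10 was log2 8.13 with palmitic, 8.61 with oleic and 8.71 with linoleic acid, against 8.70 in the control. Hilpda, a lipid droplet gene that fatty acids induce, was 1 of 3 genes listed to check the treatment. It read log2 11.49 for palmitic, 11.66 for oleic and 9.27 for linoleic acid, against 9.32 in the control. Plin2 read 13.41, 13.43 and 12.32 in the same order, against 12.21, and Cpt1a 11.66, 12.08 and 10.84, against 10.73. All 3 genes were past 1.5-fold higher than the control with palmitic and with oleic acid, and 0 of 3 with linoleic acid. Whether the cells took up linoleic acid was not tested. The arrays correlated with each other at r = 0.991 to 0.996 over all probes. In RNA from a whole culture, fewer cells of a type and less RNA per cell cannot be told apart.

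Among the 5 transcription factors, linoleic acid gave the highest value for 4 and palmitic acid for Irf1, beside 29.1% and 30.5% of kept genes. Palmitic minus linoleic acid was only -0.02 for Irf8 and -0.0077 for Irf9. Palmitic acid lay above linoleic acid for 1 of the 5, and for 3 after centring of the arrays, beside 42.5% and 53.1% of kept genes. Irf7, the factor that amplifies type I interferon production, had log2 12.33 with palmitic acid, 12.44 with oleic acid, 12.54 with linoleic acid and 12.34 in the control. Stat2, a subunit of the complex that binds the ISRE, had 12.14 with palmitic, 12.17 with oleic and 12.30 with linoleic acid, against 12.09 in the control. The linoleic acid array was thus the high one for both, by 0.20 and 0.21 over the control. Irf8, which shapes macrophage identity, differed from its control value of 12.13 by 0.15, 0.06 and 0.17 with palmitic, oleic and linoleic acid, and Irf9, the DNA-binding subunit of the ISRE complex, from 11.12 by 0.07, 0.01 and 0.07.

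Irf1, a factor induced by interferon-gamma, is the 1 member with more than 1 probe. Its bright probe read log2 12.60 with palmitic acid, 12.26 with oleic acid, 12.43 with linoleic acid and 12.38 in the control, and its dim probe 8.05, 7.83, 8.01 and 7.99. Both probes had palmitic acid highest and oleic acid lowest. The averaged value of 10.19 in the control therefore lies between 2 probes of very different brightness, and the averaged differences were 0.13, -0.14 and 0.04.

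Of the 7 measured sensors of foreign nucleic acid, 3 lay above the control with palmitic acid, beside 50.1% of kept genes. With oleic acid 5 did, beside 55.3%, and with linoleic acid 7, beside 65.2%. After centring of the arrays the count with linoleic acid was 6, beside 52.6%. Ifih1, which encodes the RNA sensor MDA5, had log2 13.35 with palmitic acid, 13.02 with oleic acid, 13.15 with linoleic acid and 13.10 in the control. Zbp1, a sensor of left-handed nucleic acid that can start necroptosis, ran the other way, with 11.85 with palmitic acid, 12.12 with oleic acid, 12.20 with linoleic acid and 12.07 in the control. Palmitic acid was thus the highest array for Ifih1 and the lowest for Zbp1, with differences from the control of 0.24 and -0.22. Ddx58, which encodes the RNA sensor RIG-I, differed from its control value of 12.55 by -0.04 with palmitic, 0.04 with oleic and 0.11 with linoleic acid. Dhx58, which encodes the related helicase LGP2, differed from 11.63 by -0.11, 0.12 and 0.06.

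The oligoadenylate synthetase genes Oas2 and Oas3, whose products activate the RNA-degrading enzyme RNase L, were higher with linoleic acid. Oas2 had log2 11.39 with palmitic, 11.40 with oleic and 11.69 with linoleic acid, against 11.34 in the control. Oas3 had 11.67, 11.87 and 11.89 in the same order, against 11.66 in the control. For Oas2 linoleic acid stood alone, and for Oas3 it stood with oleic acid. Eif2ak2, which encodes the RNA-activated kinase PKR that halts translation, differed from 11.32 by -0.03, -0.12 and 0.01.

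Of the 7 measured enzymes of ISG15, ubiquitin and ADP-ribose, 0 lay above the control with oleic acid and 7 did with linoleic acid. Of all kept genes 55.3% and 65.2% did. After centring of each array on its median these were 2 and 6, beside 62.8% and 52.6% of kept genes, and after a repeated quantile normalisation 1 and 7, beside 56.6% and 49.0%, so that the smallest of the differences have no fixed sign. Parp14, an ADP-ribosyltransferase, had log2 13.07 with palmitic acid, 12.67 with oleic acid, 12.89 with linoleic acid and 12.82 in the control. Trim21, a cytosolic antibody receptor and ubiquitin ligase, had 11.55 with palmitic, 11.48 with oleic and 11.79 with linoleic acid, against 11.68 in the control. Oleic acid was the lowest array for both.

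Other enzymes of this kind lay closer to the control. Usp18, the protease that removes ISG15 and damps receptor signalling, had a control value of 13.00 and differences of -0.03, -0.01 and 0.05 with palmitic, oleic and linoleic acid. Herc6, the mouse ligase that attaches ISG15, had a control value of 12.47 and differences of -0.07, -0.08 and 0.11. Parp9 and its partner ligase gene Dtx3l had control values of 11.27 and 12.11, and differences of 0.04 and 0.13 with palmitic, -0.06 and -0.02 with oleic and 0.08 and 0.08 with linoleic acid. Trim30a, at 13.30 in the control, had differences of -0.02, -0.02 and 0.01.

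The antiviral effectors held the largest differences of the set. Mx2, a gene of the dynamin-like GTPase family whose protein was not measured here, had log2 11.18 with palmitic and 10.38 with oleic acid. It had 10.87 with linoleic acid and 10.51 in the control. Oasl1, which in mice restrains Irf7 translation, had 13.31 with palmitic, 13.02 with oleic and 13.01 with linoleic acid, against 12.92 in the control. Palmitic acid was the high array for both, at 1.60-fold and 1.32-fold of the control. Mx2 is near the bottom of the set in brightness, at percentile 88.4 of the control array, and Oasl1 is at percentile 99.1. The related Mx1 did not share the pattern of Mx2, with differences of -0.03, -0.15 and 0.11 from a control value of 11.92. Whether Mx1 or Mx2 makes a working protein in C57BL/6 mice was not examined here. Oasl2 likewise differed from 13.23 by 0.08, 0.07 and 0.08.

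The IFIT genes, whose products bind viral RNA, separated the palmitic acid array from the other 3. Ifit1 had log2 13.64 with palmitic, 13.40 with oleic and 13.40 with linoleic acid, against 13.39 in the control. Ifit2 had 13.47 with palmitic, 13.20 with oleic and 13.19 with linoleic acid, against 13.18 in the control. Ifit3 had 12.73 with palmitic, 12.83 with oleic and 12.84 with linoleic acid, against 12.83 in the control. For all 3 genes the oleic acid, linoleic acid and control arrays lay within 0.03 of each other, while palmitic acid was 0.25 and 0.29 higher for Ifit1 and Ifit2 and 0.10 lower for Ifit3. Of these genes, Ifit1 and Ifit3 hold ISRE cores in the sequences above, and Ifit2 holds none in the windows of its 2 starts. A link between the core and these differences was not tested.

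Rsad2, which encodes viperin, and its neighbour Cmpk2, a nucleotide kinase gene, were also highest with palmitic acid. Rsad2 had log2 13.88 with palmitic, 13.74 with oleic and 13.75 with linoleic acid, against 13.74 in the control. Cmpk2 had 13.63, 13.51 and 13.45, against 13.44 in the control. The differences with palmitic acid, 0.14 and 0.20, are small folds at values near the highest of any probe, 14.44.

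A second group of effectors was higher with oleic and linoleic acid than with palmitic acid. Bst2, which encodes tetherin, had log2 10.54 with palmitic, 10.74 with oleic and 10.80 with linoleic acid, against 10.53 in the control. Isg20, an exonuclease gene, had 11.75, 11.96 and 12.05, against 11.81 in the control. For both genes palmitic acid lay near the control. Xaf1, a pro-apoptotic gene, differed from its control value of 11.46 by 0.15, 0.05 and 0.14, and Ifi35 from 11.29 by -0.0047, 0.06 and 0.02. Of the genes tied to interferon-gamma, the guanylate-binding protein genes Gbp3 and Gbp5 differed from 12.56 and 12.81 by -0.08 (Gbp5 with oleic acid) to 0.05 (Gbp3 with linoleic acid), and the peptide transporter gene Tap1 differed from 12.30 by 0.02, 0.12 and 0.16.

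**Figure D2:**
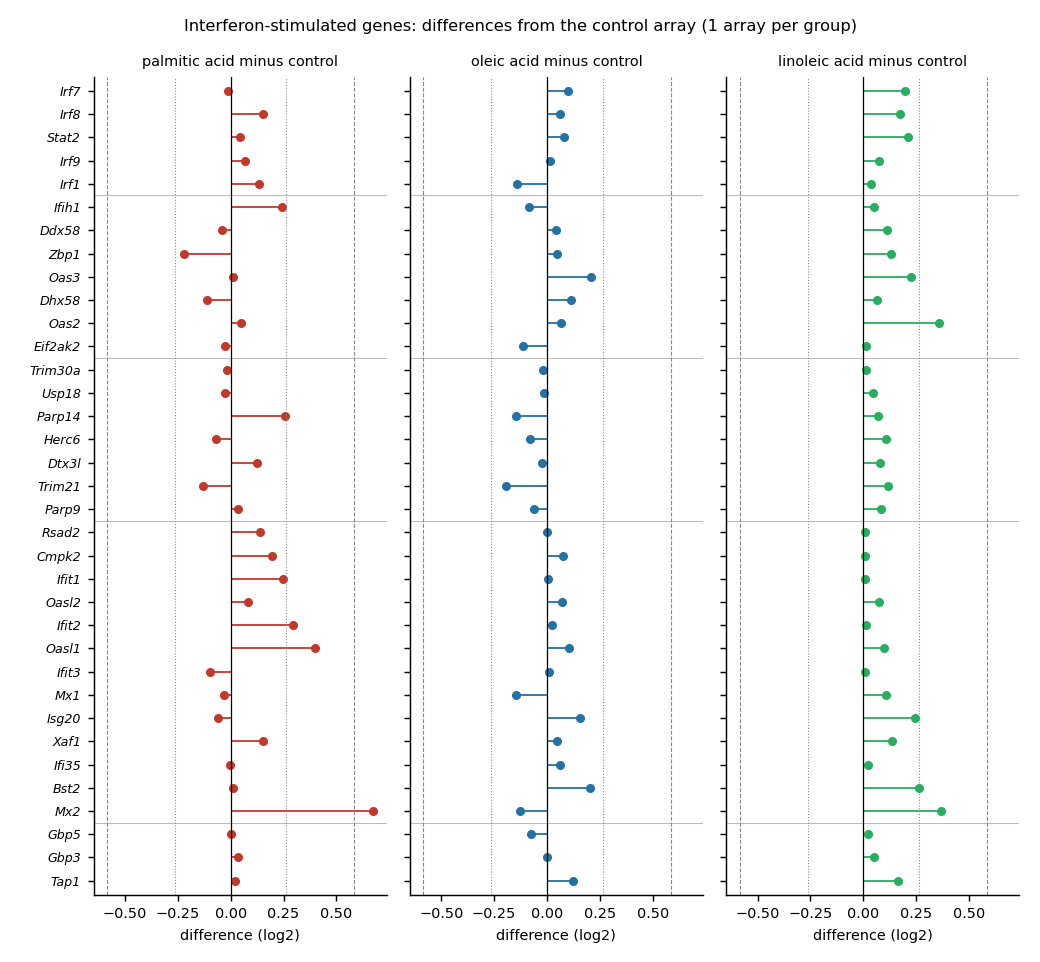
Difference in log2 value from the control array for each of the 35 measured interferon-stimulated genes with palmitic, oleic and linoleic acid, 1 array per group, with 1.2-fold marked by dotted and 1.5-fold by dashed lines. Mx2 with palmitic acid, at 0.67, is the single point past 1.5-fold. All 35 linoleic acid points lie above 0, beside 65.2% of kept genes, or 26 beside 52.6% after centring of the arrays.

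Counted over the set, palmitic acid placed 1 of 35 members, Mx2, past 1.5-fold from the control, beside 3.57% of the 11174 kept genes. Past 1.2-fold were 3 higher members, Mx2, Oasl1 and Ifit2, and 0 lower ones, beside 12.1% and 8.72% of kept genes. Members above the control numbered 22 of 35, beside 50.1% of kept genes. The median member difference was 0.04, beside 0.00059 for all kept genes. Besides the 3 named, the highest were Parp14 (0.25), Ifit1 (0.25) and Ifih1 (0.24), and the lowest were Zbp1 (-0.22), Trim21 (-0.13), Dhx58 (-0.11), Ifit3 (-0.10), Herc6 (-0.07) and Isg20 (-0.06). With palmitic acid all 8 mesothelial and fibroblast markers that passed the filter were also below the control, with a median of -0.25. Of kept genes 50.1% lay above it. Msln passed the filter only through its oleic acid value of 7.10. Of the 2 markers that did not pass, Upk3b differed by -0.07 and Krt19 by 0.03. The part of these markers' cells in the values of the interferon-stimulated genes was not tested.

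Oleic acid placed 0 of 35 members past 1.5-fold, beside 0.716% of kept genes. It also placed 0 members past 1.2-fold higher and 0 lower, beside 4.02% and 2.53%. Members above the control numbered 22 of 35, beside 55.3% of kept genes, and the median difference was 0.01 for the members and 0.01 for all kept genes. The highest members were Oas3 (0.21), Bst2 (0.20), Isg20 (0.16), Tap1 (0.12), Dhx58 (0.12) and Oasl1 (0.10). The lowest were Trim21 (-0.19), Mx1 (-0.15), Parp14 (-0.15), Irf1 (-0.14), Mx2 (-0.13) and Eif2ak2 (-0.12). Hilpda was 2.34 higher with oleic acid than in the control, but from 9.32, below the lowest member at 10.19. Among kept genes within the members' range of control brightness, the highest difference with oleic acid was 1.35.

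Linoleic acid placed 0 of 35 members past 1.5-fold, beside 0.0716% of kept genes, and 3 past 1.2-fold higher and 0 lower, beside 3.23% and 1.09%. The 3 were Mx2 (0.37), Oas2 (0.36) and Bst2 (0.26), and 2 members passed that size after centring of the arrays, beside 1.77% of kept genes. Isg20 (0.24), Oas3 (0.23) and Stat2 (0.21) followed, and the smallest differences were those of Rsad2 (0.0063), Cmpk2 (0.0089), Ifit1 (0.0090), Ifit3 (0.0095), Trim30a (0.01) and Eif2ak2 (0.01). All 35 members lay above the control, beside 65.2% of kept genes, with a median of 0.08 beside 0.04. The linoleic acid array has a higher median over all probes than the others, and with each array centred on its median 26 of 35 members lay above the control, beside 52.6% of kept genes. After a repeated quantile normalisation the count was 34 of 35, beside 49.0%. Linoleic acid gave the highest of the 4 values for 21 members, palmitic acid for 12, oleic acid for 2 and the control for 0, beside 29.1%, 30.5%, 26.9% and 13.5% of kept genes. These counts were made without centring and were not repeated after it. The higher median of the linoleic acid array enters them, and many members differ between arrays by less than it.

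The size of a difference went with brightness. Over kept genes at log2 10 to 11 in the control, the scaled median absolute deviation of the differences was 0.217 with palmitic, 0.111 with oleic and 0.105 with linoleic acid. Over the 149 genes at or above 13 it was 0.0758, 0.0569 and 0.0586, and 6.71%, 1.34% and 0% of them passed 1.2-fold either way. The 8 members at or above 13 were Ifit1, Ifit2, Rsad2, Cmpk2, Oasl2, Ifih1, Trim30a and Usp18. Their median difference was 0.17 with palmitic, 0.0041 with oleic and 0.01 with linoleic acid. For these genes a difference near 0 does not show that the transcript did not change, since few genes of that brightness differ by much on any of these arrays. The 2817 kept genes between the lowest and highest member in control brightness passed 1.5-fold either way at a share of 4.22% with palmitic, 0.852% with oleic and 0% with linoleic acid.

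**Figure D3:**
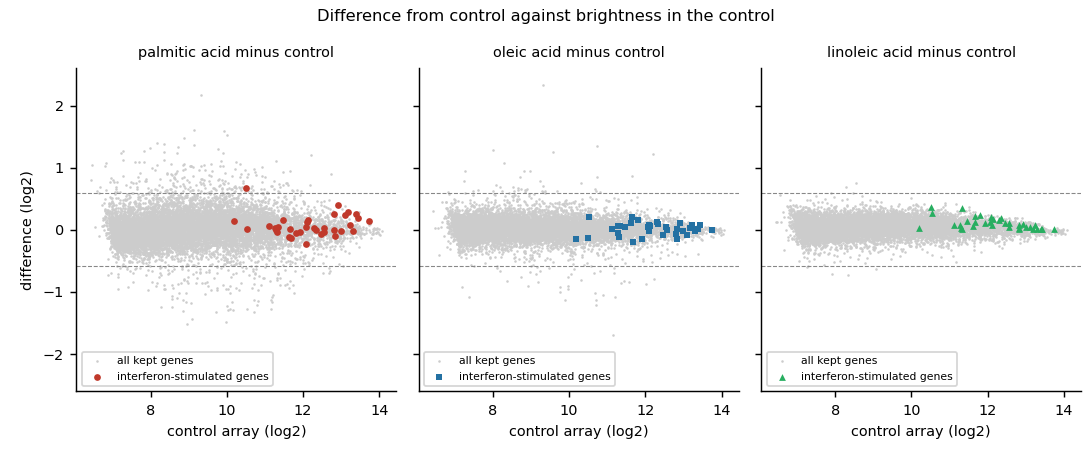
Difference in log2 value from the control array (vertical axis) against the control value (horizontal axis) for palmitic, oleic and linoleic acid, with the 11174 kept genes in grey, the 35 interferon-stimulated genes in colour and 1.5-fold marked by dashed lines. The members lie between log2 10.19 and 13.74, where the grey cloud narrows towards the right, and Mx2 at 10.51 is the member past the line with palmitic acid.

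The fatty acids were also set against each other in 3 pairs, all at 500 µM and 6 h. Palmitic and oleic acid, which differ in chain length and by 1 double bond, differed by at least 1.5-fold at 1 of 35 members, beside 3.47% of kept genes. This was Mx2, 0.80 or 1.74-fold higher with palmitic acid. Higher with palmitic acid by 1.2-fold were 6 members, beside 13.0% of kept genes, namely Mx2, Parp14 (0.40), Ifih1 (0.33), Oasl1 (0.30), Irf1 (0.28) and Ifit2 (0.27). Lower by that size was 1 member, Zbp1 (-0.27), beside 11.4% of kept genes, and the next lowest were Dhx58 (-0.23), Isg20 (-0.21), Oas3 (-0.20), Bst2 (-0.19) and Irf7 (-0.11). Members higher with palmitic acid numbered 22 of 35, beside 45.9%, and the median was 0.05.

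Palmitic and linoleic acid differed by 1.5-fold at 0 of 35 members, beside 3.60% of kept genes. By 1.2-fold 3 members were higher with palmitic acid, Mx2 (0.31), Oasl1 (0.30) and Ifit2 (0.28), and 3 were lower, Zbp1 (-0.35), Oas2 (-0.30) and Isg20 (-0.30), beside 8.41% and 10.8% of kept genes. After centring of the arrays 4 were higher and 1 lower, beside 11.1% and 8.01%, and after a repeated quantile normalisation 3 and 4, beside 8.44% and 9.89%. Ifit1 (0.24), Ifih1 (0.19) and Cmpk2 (0.19) came next above, and Bst2 (-0.25), Trim21 (-0.25) and Oas3 (-0.22) next below. Members higher with palmitic acid numbered 12 of 35, beside 42.5%, with a median of -0.03. After centring of the arrays they numbered 19, beside 53.1%, and the median was 0.02, so that the balance of the set between these arrays has no fixed direction.

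Linoleic acid has 1 double bond more than oleic acid in a chain of equal length. These acids differed by 1.5-fold at 0 of 35 members, beside 1.05% of kept genes. Higher with linoleic acid by 1.2-fold were Mx2 (0.50), Trim21 (0.31) and Oas2 (0.29), 3 members beside 7.14% of kept genes, followed by Mx1 (0.25), Parp14 (0.22) and Herc6 (0.18). After centring of the arrays 1 member passed that size, beside 4.20% of kept genes, and after a repeated quantile normalisation 2, beside 4.46%. Lower by that size were 0 members, beside 4.16%, and the 5 members below 0 were Cmpk2 (-0.06), Dhx58 (-0.05), Ifi35 (-0.04), Ifit2 (-0.0076) and Oasl1 (-0.0068). Members higher with linoleic acid numbered 30 of 35, beside 55.3%, 22 of 35 beside 39.9% after centring of the arrays, and 31 of 35 beside 41.8% after a repeated quantile normalisation. No interval of these differences can be had from 1 array a group, so a small difference does not show that a pair of fatty acids acted alike. The 3 differences from the control share the control array, and a low or high control value enters all of them.

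Genes upstream of the set were described from a list of 28 interferons, receptors and signalling genes, of which 26 were measured and 23 passed the filter. Ifnb1, the gene of interferon-beta, did not pass, with log2 5.87 with palmitic, 5.77 with oleic and 5.85 with linoleic acid, against 6.02 in the control. The interferon-alpha genes Ifna2 and Ifna4 were also below the filter, at 6.44 and 5.31 in the control. Brightness depends on the probes, and Ifna1 was not measured. Whether interferon was made in these cultures was not tested.

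With palmitic acid 1 of the 23 was past 1.5-fold higher and 0 lower, beside 3.57% of kept genes either way, and 7 of 23 lay above the control, beside 50.1%. After a repeated quantile normalisation 1 was lower by that size, beside 3.43% of kept genes either way. Ticam1, which encodes the adaptor TRIF that links Toll-like receptors to interferon genes, had log2 11.00 with palmitic, 10.18 with oleic and 10.32 with linoleic acid, against 10.14 in the control. Ikbke, a kinase that acts on interferon regulatory factors, had 10.92, 11.71 and 11.70, against 11.48 in the control. Socs1, an inhibitor of JAK signalling, had 9.56, 10.10 and 10.40, against 10.08 in the control. Palmitic acid was the highest array for Ticam1 and the lowest for Ikbke and Socs1. The receptor gene Ifnar1 (-0.40) and the kinase gene Tyk2 (-0.32) were the next lowest with palmitic acid, from control values of 12.06 and 10.16, and Cgas (0.29) and Mavs (0.22) came after Ticam1, from 7.99 and 9.60. Ifng (0.30, from 6.81) reached the brightness filter only through its palmitic acid value of 7.11, so that its place there was set by the filter. The list median was -0.17 with palmitic, 0.04 with oleic and 0.07 with linoleic acid. With oleic and linoleic acid 0 of 23 passed 1.5-fold, beside 0.716% and 0.0716% of kept genes.

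Between fatty acids, Ticam1 was higher with palmitic than with oleic acid by 0.82 and than with linoleic acid by 0.68. Lower with palmitic acid past 1.5-fold were Ikbke (-0.79) and the DNA-sensing adaptor gene Sting1 (-0.66) against oleic acid, and Socs1 (-0.84) and Ikbke (-0.78) against linoleic acid. Kept genes passed 1.5-fold either way at 3.47% and 3.60% in these pairs. After a repeated quantile normalisation 3 of the 23 were lower than with oleic acid, beside 3.41% of kept genes either way. Linoleic and oleic acid had 0 of 23 past 1.5-fold, beside 1.05% of kept genes. Sting1 had the lowest value of that pair, -0.41, and Socs1 the highest, 0.30.

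Of 58 other interferon-induced genes 49 were measured, and all 49 passed the filter. With palmitic acid 2 were past 1.5-fold lower and 0 higher, beside 3.57% of kept genes either way. The number lower was 3 after a repeated quantile normalisation, beside 3.43% either way. Cxcl9, a chemokine gene strongly induced by interferon-gamma, had log2 8.88 with palmitic, 10.09 with oleic and 10.56 with linoleic acid, against 10.17 in the control. Cxcl11, a ligand of the same receptor, had 7.25, 8.26 and 8.21, against 8.15 in the control. Palmitic acid was well below the other arrays for both. Cxcl10, the related gene at 13.83 in the control, differed by -0.05. At or above 13 only 6.71% of kept genes passed 1.2-fold with palmitic acid. The small difference thus does not show that Cxcl10 behaved otherwise than Cxcl9 and Cxcl11. The next lowest with palmitic acid were Ifitm1 (-0.57) and the immunoproteasome gene Psmb10 (-0.54), and the highest were Trim25 (0.44), a ubiquitin ligase gene that acts on RIG-I, and Zc3hav1 (0.36), which encodes the zinc-finger antiviral protein.

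With oleic and linoleic acid 0 of the 49 passed 1.5-fold, beside 0.716% and 0.0716% of kept genes. The Schlafen gene Slfn4 was highest with both, by 0.51 and 0.42 from 11.17 in the control. Cxcl9 (0.39), Nlrc5 (0.34), an activator of MHC class I genes, and the GTPase gene Iigp1 (0.32) followed with linoleic acid, and 38 of 49 lay above the control there, beside 65.2% of kept genes, or 36 of 49 beside 52.6% after centring of the arrays. The list median was -0.02 with palmitic, 0.03 with oleic and 0.12 with linoleic acid. Against linoleic acid, palmitic acid had 6 of 49 past 1.5-fold lower, Cxcl9 (-1.67), Cxcl11 (-0.97), Ifitm1 (-0.83), Gbp9 (-0.71), Iigp1 (-0.63) and Slfn4 (-0.60), beside 3.60% of kept genes either way. After centring of the arrays there were 5, beside 3.58%. Against oleic acid there were 3, Cxcl9 (-1.21), Cxcl11 (-1.02) and Slfn4 (-0.69), beside 3.47%. Between linoleic and oleic acid 0 of 49 passed 1.5-fold, beside 1.05% of kept genes.

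**Figure D4:**
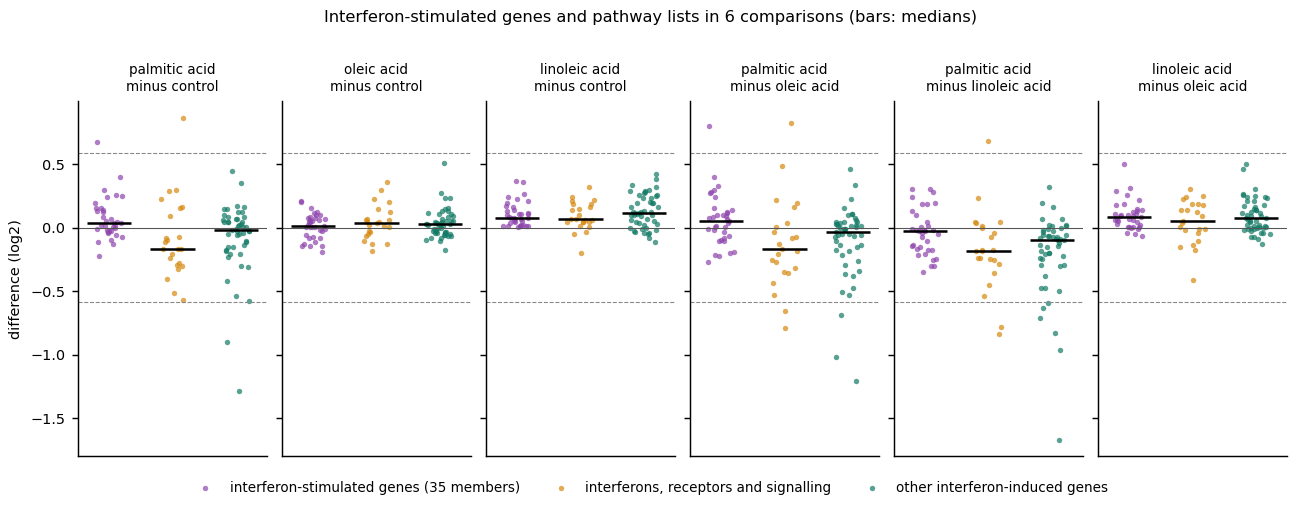
Difference in log2 value in the 6 comparisons for the 35 interferon-stimulated genes, the 23 kept interferon, receptor and signalling genes and the 49 kept other interferon-induced genes, 1 point per gene, with bars at the medians and dashed lines at 1.5-fold. The lowest points are Cxcl9 and Cxcl11 in the 3 comparisons with palmitic acid on top, and Mx2 is the highest member in 5 of the 6 panels.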

How the data were processed

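RNA pooled from 3 samples per group was measured on 4 Affymetrix arrays after RNA integrity numbers above 8.0, per the labels' protocols. The log2 values deposited by the authors were made with RMA, per the submitters' processing notes, a method that removes background, equalises the arrays' distributions and combines probes into sets. Its version is not given in the sources used here, nor is a genome build. That the scale is log2 was inferred from the values themselves.

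Of 35556 probes, 21789 are annotated to exactly 1 gene, 1621 to several and 12146 to none here. Probes of a gene were averaged. Probes of close relatives, among them IFIT, OAS, MX, TRIM30 and guanylate-binding genes, can bind each other's transcripts. Differences were taken per gene and counted at 1.5-fold and 1.2-fold, without tests, since each group is 1 array. The counting was checked on simulated data. Python 3.11.15, pandas 2.3.3 and numpy 2.4.6 were used.

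The members, the pathway lists and the marker lists were chosen with earlier results of these data known. Named were all members, in each comparison those past 1.5-fold and the 6 largest each way, and of the pathway lists the genes past 1.5-fold and up to 4 each way. Comparisons use 11174 genes past the brightness filter, and precision is limited by having 4 arrays. Alternatives were array centring, a repeated quantile normalisation, 3 other filters, the brightest probe, a floor and other fold thresholds.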

Additional observations from a re-analysis of the deposited data

How the results depend on the processing

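Of 840 differences of single members recomputed under 4 alternatives, 840 stayed within 0.1 of the reported value and 0 of those past 1.5-fold changed sign. The alternatives were each array centred on its median, a repeated quantile normalisation, the brightest probe of a gene, and a floor at the 25th percentile of all values. The floor, at log2 5.82, lies below all member values, and the brightest probe can change only Irf1. These 2 alternatives could thus move few or no differences, and the limit of 0.1 is wider than many of the differences themselves. Of 174 recomputed counts and medians, 10 moved. The 42 recomputed medians of the set also moved by at most 0.1, but each reported median is itself smaller than that. The median for palmitic minus linoleic acid changed sign within this limit, from -0.03 to 0.02 after centring. At a 2-fold threshold 0 members were higher with palmitic acid than in the control and 0 than with oleic acid. Of kept genes 0.689% and 0.555% passed that threshold either way. At 1.2-fold 3 were higher for palmitic acid against the control, 3 for linoleic acid against the control, 6 higher and 1 lower for palmitic against oleic acid, 3 higher and 3 lower for palmitic against linoleic acid, and 3 higher for linoleic against oleic acid. The number of members higher with palmitic than with linoleic acid was 19 after centring, an alternative added after the data were seen, as were all recounts of members above 0. The other filters changed which genes the members were set beside and removed 0 members. No paired analysis was possible because each group is 1 array and no test was made.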

Other observations

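A list of 15 genes that respond mainly to interferon-gamma, 6 of them members, was described separately, and 12 were measured. With palmitic acid 1 of the 12 was past 1.5-fold lower and 0 higher, beside 3.57% of kept genes either way, and the median was 0.01. The 1 gene was Cxcl9, already counted among the other interferon-induced genes. The medians were -0.01 with oleic acid and 0.17 with linoleic acid, with 11 of 12 above the control with linoleic acid, beside 65.2% of kept genes, or 10 of 12 beside 52.6% after centring of the arrays. The transcription activator gene Ciita lay close to the brightness filter, at log2 7.27 in the control.

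Members that are direct neighbours among protein-coding genes of GRCm38.p6 gave like or unlike differences. Parp14, Dtx3l and Parp9, side by side on chromosome 16, differed from the control by 0.25, 0.13 and 0.04 with palmitic acid, and by -0.15, -0.02 and -0.06 with oleic acid. Oasl1 and Oasl2 on chromosome 5 differed by 0.40 and 0.08 with palmitic acid, and Oas2 and Oas3 on the same chromosome by 0.36 and 0.23 with linoleic acid. Ifit2 and Ifit3 on chromosome 19 differed by 0.29 and -0.10 with palmitic acid.

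Spib, a transcription factor gene used as a marker of plasmacytoid dendritic cells, which are strong makers of type I interferon, had log2 6.43 with palmitic, 6.71 with oleic and 7.08 with linoleic acid, against 7.15 in the control. Spib reached the brightness filter only through its control value. The other such markers did not share one direction. Tcf4, the brightest, had 10.75 with palmitic, 10.92 with oleic and 11.12 with linoleic acid, against 10.95 in the control. Ccr9 had 7.61, 7.78 and 7.73, against 7.67 in the control, and Siglech, which did not pass the filter, had 6.60, 6.40 and 6.77, against 6.57 in the control.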
